A study of Mus musculus with 69 samples.

Results

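Solute carriers are the membrane proteins that move sugars, amino acids, bile acids, nucleosides, metals and ions across cell membranes, and the numbered families (Slc and Slco symbols) group them by sequence. The carriers followed here in the liver of old mice were every probe whose symbol on the array starts with Slc and a digit, or with Slco, leaving out the mitochondrial Slc25 family and 9 carriers named one by one (Slc10a1, Slco1b2, Slc27a5, Slc22a26, Slc30a10, Slc30a1, Slc39a14, Slc40a1 and Slc1a2). By symbol the array held 419 such probes for 289 genes. A probe was kept when it stood above the negative controls (detection score above 0.95) on at least 13 of the 69 arrays, which left 192 probes for 148 genes out of 12442 tested probes. The probes nearest that limit were dim on both sides of it. Inside it, Slc2a9 (its dimmest probe) and Slc36a1 were detected on 13 arrays, and outside it Slc28a3, Slc35f6 and Slc4a8 were detected on 12, with mean log2 signals of 6.77, 6.86, 6.85, 6.82 and 6.78 in that order.

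The rule goes by symbol, so it does not hold plasma membrane carriers alone. It also took in carriers of inner membranes (the Slc35 nucleotide sugar carriers of the Golgi, the glucose 6-phosphate carrier Slc37a4 of the endoplasmic reticulum, the Slc30 zinc carriers of vesicles, the lysosomal amino acid carriers Slc15a4 and Slc38a9) and proteins that are no carriers, such as the scaffolds Slc9a3r1 and Slc9a3r2. Several well known liver carriers were on the array but too dim to be tested: Slc16a1 and Slco1a1 were detected on 0 of 69 arrays, and Slc13a5 and Slc3a2 on 1.

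Liver RNA of C57BL6/J mice of 25 months of age was hybridised to single-colour bead arrays, 1 animal to an array. All mice ate the same chow from 4 months of age for 21 months, with encapsulated rapamycin at 14 ppm (Rapa, an inhibitor of the kinase mTOR) or with the empty Eudragit capsule (control). The females numbered 16 on control and 21 on Rapa chow and the males 19 and 13, none fasted before the liver was taken. By how these same arrays grouped, the study split its treated males, 7 as Rapa-1 and 6 as Rapa-2. Values and counts of these subgroups are thus a description and no test of diet. Each array measured a whole piece of liver, in which fewer cells of a type and less RNA per cell cannot be told apart.

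The liver takes up and releases more kinds of solute than almost any other organ. On the side facing the blood its hepatocytes exchange glucose through Glut2, the product of Slc2a2, collect glutamine and alanine through system N and system A carriers of the Slc38 family, and clear bile acids, drugs and hormones through Slco and Slc22 carriers. mTORC1, the rapamycin target, is itself controlled by amino acids that carriers bring to the lysosome.

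Signals are given as log2 of the normalized bead signal, and a log2 difference of 1 is a 2-fold change. A probe passed the test when limma's moderated test gave a Benjamini-Hochberg adjusted p under 0.05 over all 12442 probes and the groups differed by more than 15%, and "rose" or "fell" below means that. On the arrays as a whole, the unnormalized median signal of the 6 Rapa-2 males lay between 84 and 96.8, below every control male (113.8 to 146) and every Rapa-1 male (116.8 to 130.8). In females the medians overlapped (92.4 to 119 in controls, 87.9 to 116.5 in Rapa), but fewer probes were detected in Rapa females, 39.9% ± 1.31 against 43.6% ± 1.86 (SD, n = 21 and 16). Among the carriers, 153 ± 7.39 probes an array were detected in Rapa females and 167 ± 5.01 in control females. Control females 2, 3 and 15 correlated least with the rest of their own group. Control animals fell into 2 runs of animal numbers in each sex when divided at the widest gap (7 and 9 females, 7 and 12 males), the first of which continued from the numbers of the Rapa animals. All Rapa-1 numbers came before all Rapa-2 numbers, so number order and subgroup cannot be told apart. For a block, each Rapa group was taken as a run of its own. Neutrophil markers moved with diet in females: 5 of 6 fell, all but Lcn2, and the same 5 stood higher in control females than in control males. The summed log2 signal of all 6, of which Lcn2 was the brightest, ran from 10.0 to 15.9 in Rapa and from 10.6 to 16.4 in control females. Of markers of other cells, endothelial Lyve1 (-0.61), stellate Dcn (-0.79), macrophage Adgre1 (-0.32) and lymphocyte Ccl5 (-0.53) fell in Rapa females, 1 of 6, 5, 4 and 4 tested in each list. In Rapa males Lyve1 (-0.93), Dcn (-0.26), stellate Lrat (-0.23) and hepatocyte Ttr (-0.31) fell, and no neutrophil marker passed. Of the hepatocyte markers, Apoa1 and Cps1 were bright in every group and did not pass the test, Hnf4a and Ttr fell (2 of 5 tested), and the albumin probe was dim in every group (means of 6.58 to 6.94). The part of array brightness, detection and other cell types in the results below was not tested beyond the values given.

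In females, 66 of 192 carrier probes passed the test for diet (34.4%), 30 higher and 36 lower in Rapa. Of all tested probes 38.4% passed (percent called; 20.0% higher and 18.5% lower), so the carriers as a whole were no more often past the test than the liver transcriptome. In males 25 passed (13.0%, against 10.6% of all probes), 9 higher and 16 lower, where 3.06% and 7.52% of all probes did so. Control females and control males differed in 74 (38.5%, against 35.6%), 45 higher and 29 lower in females (19.5% and 16.1% of all probes), and 7 of these were past 2-fold (3.65%, against 3.10%). The median log2 difference over the carriers was 0.04 for diet in females, 0.05 for diet in males and 0.09 for sex, beside 0.03, 0.03 and 0.05 over all probes. By gene, counting the brightest probe, 22 genes rose and 32 fell in Rapa females, and 8 rose and 12 fell in Rapa males, of 148. Of all 9441 genes counted the same way, 37.9% passed in females and 9.91% in males. Each probe without a gene identifier counts there as a gene of its own, and the tested genes with a symbol were 8729.

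The balance between higher and lower depended on how the arrays were scaled. When each array was scaled to its own median in place of quantile normalization, the median female diet difference of all probes moved from 0.03 to -0.20, and 0 carrier probes were higher and 80 lower. Male diet calls then were 0 higher and 17 lower. The sex comparison again had 45 higher and 29 lower, and 70 of the 74 calls were the same. With the unnormalized array median as a covariate 61 probes passed for sex, and only 45 of these were among the 74. Directions below are those after quantile normalization, and a gene whose sign turned is named where it is described.

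Of the carrier probes, 20 passed the diet test in both sexes, all in the same direction (15 lower and 5 higher), while 46 passed in females alone and 5 in males alone. Of all tested probes 7.37% passed in both sexes in the same direction (5.59% lower, 1.78% higher) and 0.0482% in opposite directions. No carrier probe separated Rapa from control females without overlap (0.490% of all probes did), and none separated Rapa from control males (0% of all probes).

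**Figure D1:**
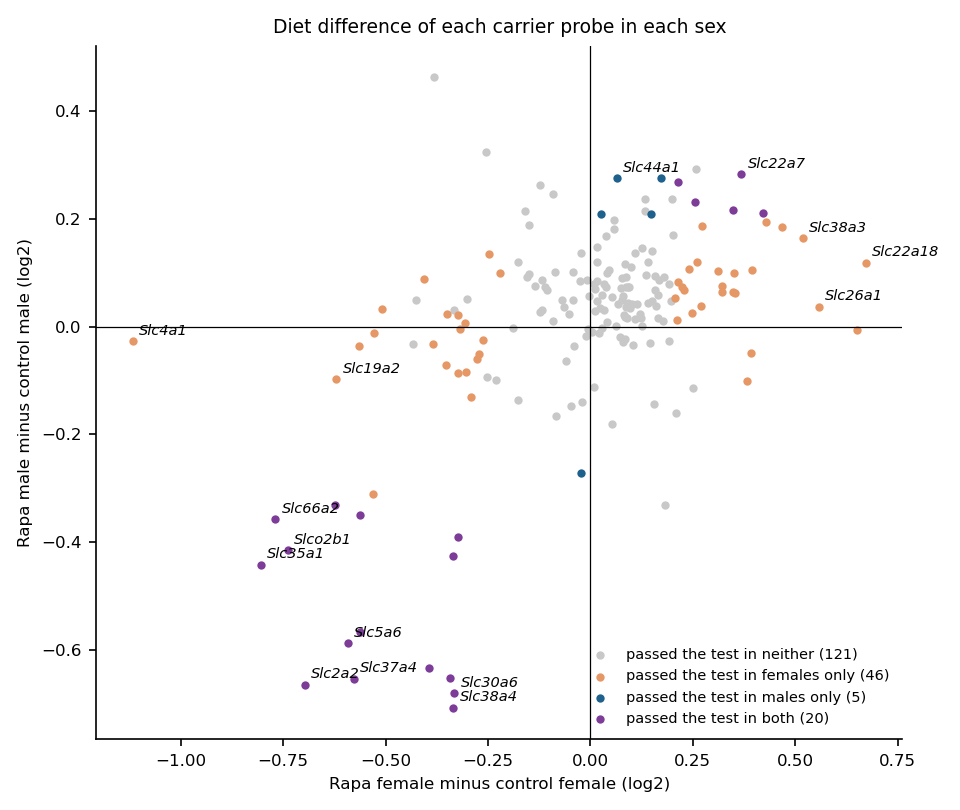
Each point is 1 of 192 carrier probes, placed by its log2 diet difference in females (x axis) and in males (y axis), with colour marking where it passed the test. The 20 probes that passed in both sexes lie in the lower left (15) and upper right (5). Of the 30 probes higher in females, none was past the test under median scaling.

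Among the sugar carriers 3 genes fell in both sexes on their only or brightest probe with differences past -0.5 in each, Slc2a2, Slc37a4 and Slc5a6. Slc2a2, which encodes the liver glucose carrier Glut2, lay between 9.04 and 11.08 (median 10.51) in control females and between 8.76 and 10.64 (median 9.68) in Rapa females by its brightest probe. The Rapa group was lower although the ranges overlapped widely. The log2 difference was -0.70 ± 0.15 (SE; fold 0.617, limma adjusted p = 0.00017), with 20 of 21 Rapa females under the control mean. In males the same probe ran from 10.34 to 12.00 (median 11.60) in controls, from 10.52 to 11.71 (median 11.36) in Rapa-1 and from 9.67 to 10.57 (median 10.41) in Rapa-2. The low male values were thus those of Rapa-2, and the difference over all Rapa males was -0.66 ± 0.17 (adjusted p = 0.011).

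Slc2a2 was also read by another pair of probes, and these did not follow the brightest. In females they rose, by 0.65 ± 0.18 (adjusted p = 0.0020) and 0.39 ± 0.16 (adjusted p = 0.031), where the brightest fell. In males they differed by -0.01 and -0.05 and did not pass the test. Only the sex difference ran the same way on all 3, with differences of control females from control males of -1.12, -0.64 and -0.57. The probes of Slc2a2 thus gave no single diet direction.

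Slc37a4, the carrier that brings glucose 6-phosphate into the endoplasmic reticulum for the last step of glucose release, fell in both sexes. Its signal ran from 7.22 to 7.88 (median 7.54) in control females and from 6.54 to 7.41 (median 6.95) in Rapa females, a difference of -0.58 ± 0.08 (adjusted p = 6.0e-08) with 21 of 21 Rapa females under the control mean. In males, controls spanned 7.63 to 9.58 and Rapa-1 8.14 to 9.04, while Rapa-2 spanned 6.60 to 7.16 and did not overlap either. The gene was dim in the low groups, detected on 9 of 21 Rapa females and 5 of 6 Rapa-2 males. A check on another probe was not possible, since 1 probe read it.

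Among other sugar carriers, Slc50a1, a sugar exporter of the Sweet family, fell in both sexes (-0.56 in females, -0.35 in males). Slc2a1 and Slc2a3, glucose carriers of the same family as Slc2a2, fell in Rapa females (-0.32 and -0.56). Both stood higher in control females than in control males (0.51 and 0.60). Slc2a3 was dim, detected on 9 of 21 Rapa females and 13 of 19 control males, and Slc50a1 was detected on 12 of 21 Rapa females. The 3 highest control females for Slc2a1 were animals 2, 3 and 15, at 10.68, 9.51 and 9.43 against a group median of 8.83. Slc2a9, which carries urate, was higher in Rapa than in control females by 0.26 ± 0.08 (adjusted p = 0.0075), a sign that turned to -0.15 under median scaling, and higher in Rapa males by 0.23 ± 0.05 (adjusted p = 0.0064). These are values of its brightest probe. Its dimmer probes did not pass in either sex (0.13 and 0.06 in females, 0.10 and 0.00 in males). Slc5a6, a sodium-coupled vitamin carrier for biotin and pantothenate grouped here by its family number, fell by 0.59 in each sex. Over the family, 3 of 20 probes rose and 6 fell in Rapa females, 1 rose and 4 fell in Rapa males. The shares of all tested probes to set beside this and each family count below are 20.0% higher and 18.5% lower in females. In males they are 3.06% and 7.52%.

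Amino acid carriers moved in both directions. Slc38a4, a system A carrier abundant in liver, spanned 9.16 to 10.65 (median 9.53) in control males and 9.64 to 10.14 (median 9.85) in Rapa-1, but 7.46 to 8.13 (median 7.98) in Rapa-2. Rapa-2 lay wholly below both other male groups. The difference over all Rapa males was -0.71 ± 0.25 (adjusted p = 0.048). Control females were lower than control males without overlap, at 7.76 to 8.79 (median 8.39; log2 difference -1.29 ± 0.12, adjusted p = 1.4e-11). Rapa females, at 7.76 to 8.36 (median 8.00), differed from control females by -0.33 ± 0.08 (adjusted p = 0.00054), within the control range.

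Slc38a3, the system N carrier that moves glutamine into the liver cell, rose in Rapa females. It ran from 10.43 to 12.07 (median 11.26) in control and from 11.42 to 12.40 (median 11.78) in Rapa females, and 21 of 21 Rapa females were above the control mean. The groups overlapped, with the control females more spread out. The difference was 0.52 ± 0.12 (adjusted p = 0.00047), and under median scaling it was 0.13 and not past the test. With control females of the second run of animal numbers alone it was 0.22 and did not pass either. Male values showed no passing difference (0.16 ± 0.09).

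Slc38a2, the amino acid-regulated system A carrier, fell in Rapa females by 0.51 ± 0.13 on its brightest probe (adjusted p = 0.0012), from 10.43 to 12.48 (median 11.04) in controls to 10.00 to 11.42 (median 10.59). Its 3 probes disagreed. The next brightest also fell (-0.34) and the dimmest rose (0.21). The dimmest was detected on only 1 of 16 control and 7 of 21 Rapa females, so most of its female signals were not above background. For sex they parted more widely, with control females above control males by 0.80 on the brightest and below them by -1.31 and -0.24 on the others.

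Slc6a6, the taurine carrier, and Slc6a13, a GABA and taurine carrier of the hepatocyte, went opposite ways in Rapa females. Slc6a6 fell by 0.41 ± 0.09 (adjusted p = 0.00023; 10.88 to 11.82 in Rapa, 11.20 to 12.34 in control females). Slc6a13 rose by 0.39 ± 0.07 (adjusted p = 7.8e-06; 11.83 to 12.84 in Rapa, 11.72 to 12.42 in control females), or by 0.02 under median scaling, not past the test. In both cases the ranges overlapped and most Rapa females lay on 1 side of the control mean, 20 of 21 below it for Slc6a6 and 19 of 21 above it for Slc6a13. For Slc6a6 the difference was -0.21 and did not pass against the second run of control females, and its sign turned to 0.0056 with the detected share of each array as a covariate.

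Slc38a7, a glutamine carrier, was higher in Rapa females by 0.35 ± 0.07 (adjusted p = 5.3e-05), though at -0.02 under median scaling, and in Rapa males by 0.22 ± 0.06 (adjusted p = 0.013). In males it ran from 7.49 to 8.02 in controls, 7.64 to 8.01 in Rapa-1 and 8.07 to 8.30 in Rapa-2. The Rapa-2 males were thus above every other male. Slc7a5, the leucine carrier, fell in Rapa females (-0.31), and the arginine carrier Slc7a2 did not pass the test on its brightest probe (-0.18 ± 0.20, adjusted p = 0.48; -0.62 and past the test under median scaling). Of its other probes 1 fell in both sexes (-0.34 in females, -0.43 in males) and 1 did not pass in either (0.01 and -0.11). Of 36 amino acid and peptide carrier probes, 5 rose and 7 fell in Rapa females and 1 rose and 3 fell in Rapa males.

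**Figure D2:**
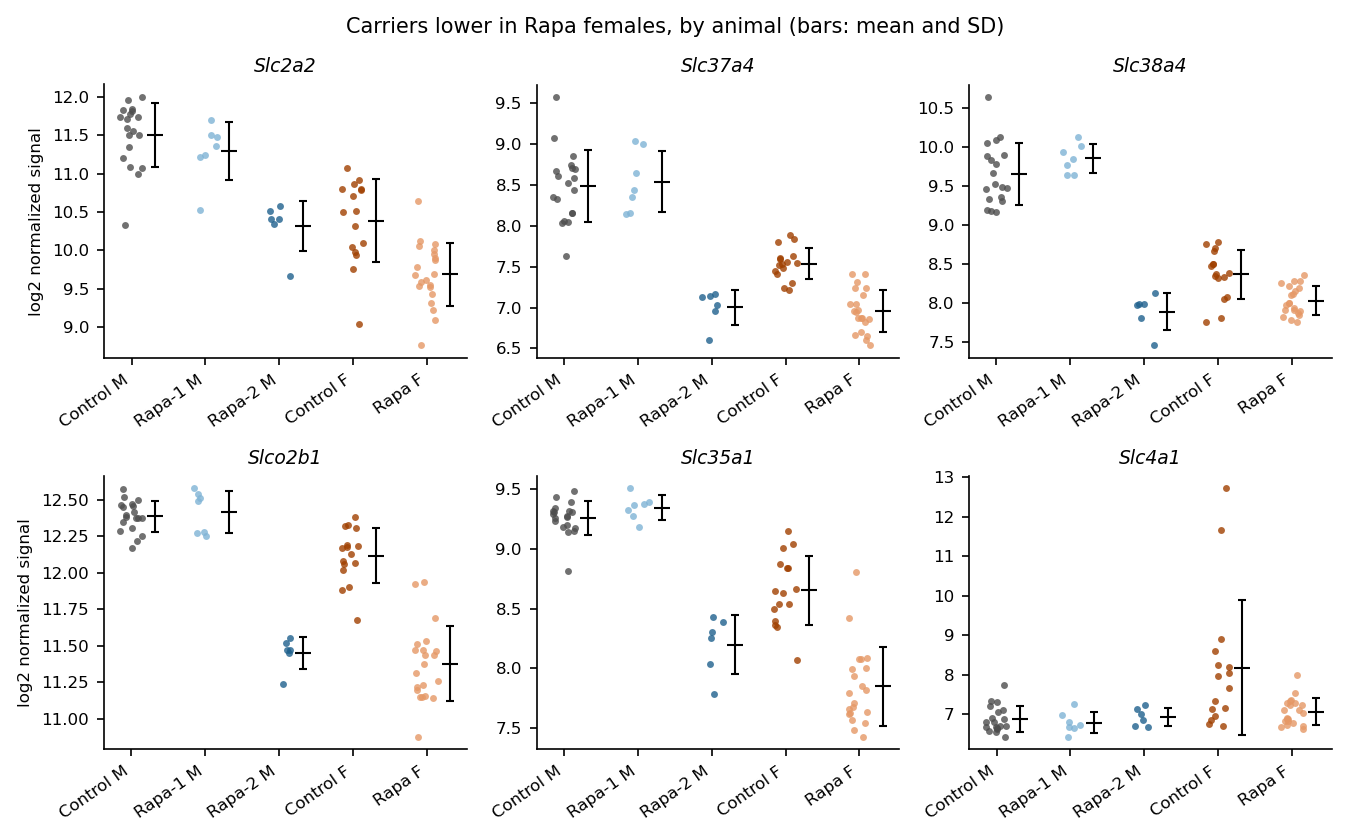
The log2 normalized signal of 6 carriers lower in Rapa than in control females (brightest probe of each), 1 point an animal, with the group mean and SD beside the points and a separate signal axis for each gene. Rapa-2 males lie below control and Rapa-1 males for Slc37a4, Slc38a4, Slco2b1 and Slc35a1 without overlap, and 2 control females stand far above the rest for Slc4a1.

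Organic ion carriers included the member with the smallest adjusted p for diet in females. Slco2b1, which takes up steroid conjugates and drugs, spanned 11.68 to 12.38 (median 12.15) in control females and 10.88 to 11.93 (median 11.38) in Rapa females. Only the tops of the Rapa range met the control range. The difference was -0.74 ± 0.07 (fold 0.599, adjusted p = 3.0e-10), with 21 of 21 Rapa females under the control mean. Control males ran from 12.17 to 12.57, Rapa-1 from 12.25 to 12.58 and Rapa-2 from 11.24 to 11.56, the last apart from both. The male difference was -0.41 ± 0.12 (adjusted p = 0.016).

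Slco1a4, a bile acid and digoxin carrier, fell in both sexes, by 0.56 ± 0.15 in females (adjusted p = 0.0013) and 0.57 ± 0.20 in males (adjusted p = 0.044). Its ranges overlapped everywhere, at 7.22 to 9.51 in control and 6.81 to 8.17 in Rapa females. Slc22a7, the organic anion carrier Oat2, rose in both sexes, by 0.37 ± 0.12 (adjusted p = 0.011) and 0.28 ± 0.09 (adjusted p = 0.024). Its female rise was 0.01 under median scaling, and without control females 2, 3 and 15 it was 0.28, and neither passed the test. The male medians were 7.72 in controls, 8.03 in Rapa-1 and 7.77 in Rapa-2.

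Slc22a18, a carrier of the imprinted Cdkn1c region whose substrate in liver is not settled, had the highest female diet difference of the 192 probes. Control females ran from 9.51 to 11.19 (median 10.64) and Rapa females from 10.60 to 11.63 (median 11.25). The 2 lowest controls were animals 2 and 3, at 9.51 and 9.66. The difference was 0.67 ± 0.11 (fold 1.59, adjusted p = 3.5e-06), and 0.51, still past the test, without control females 2, 3 and 15. Under median scaling it was 0.24, above the -0.20 of the median probe but not past the test. Over the family 5 of 19 probes rose and 2 fell in Rapa females, and 2 rose and 2 fell in Rapa males.

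**Figure D3:**
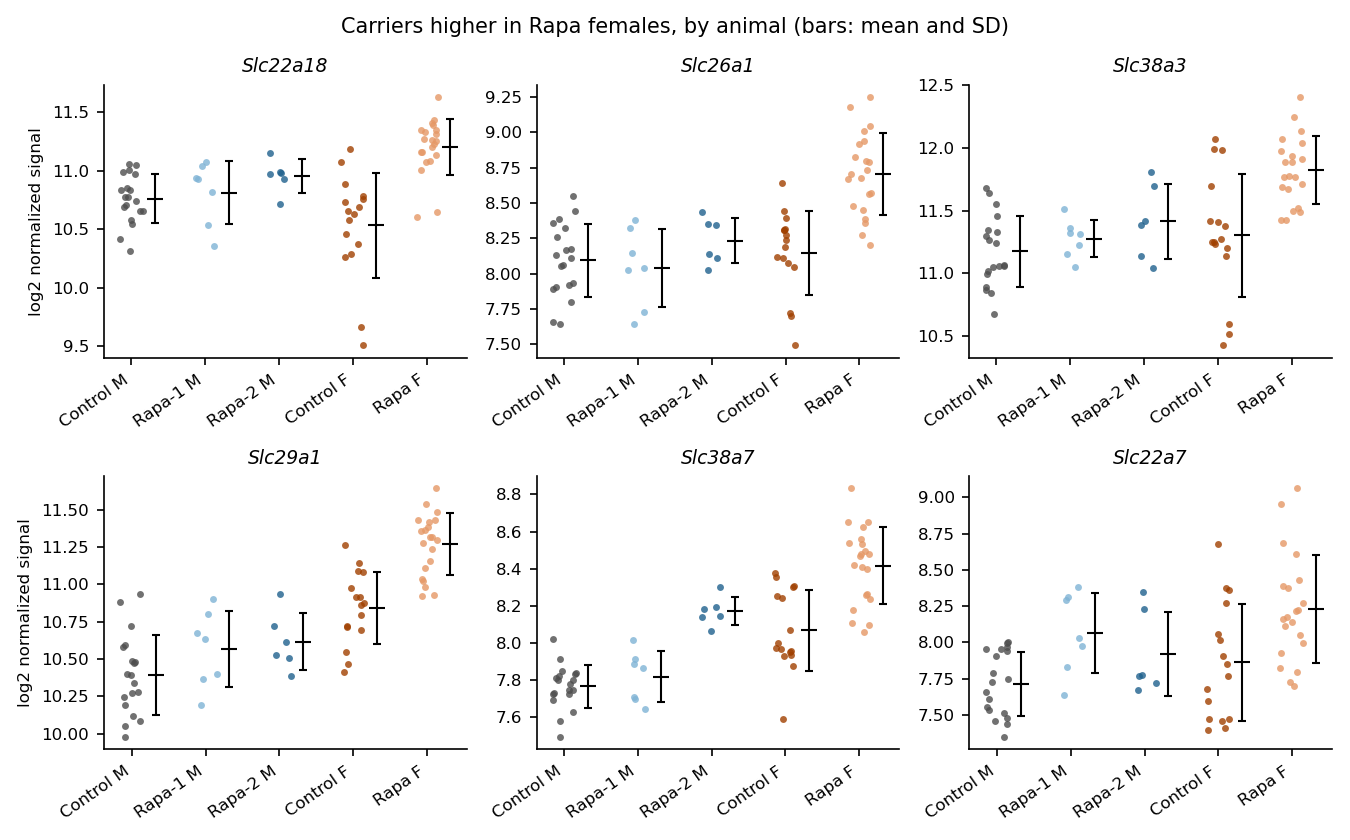
The log2 normalized signal of 6 carriers higher in Rapa than in control females, 1 point an animal, with the group mean and SD beside the points and a separate signal axis for each gene. All 21 Rapa females lie above the control female mean for Slc22a18, Slc26a1, Slc38a3 and Slc29a1; under median scaling none of the 6 passed the test and Slc38a7 turned to -0.02.

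Nucleotide sugar carriers bring activated sugars into the Golgi for the making of glycoproteins. Slc35a1, which carries CMP-sialic acid, had the lowest female difference after Slc4a1, -0.80 ± 0.10 (fold 0.572, adjusted p = 2.6e-08), from 8.07 to 9.15 (median 8.64) in control to 7.43 to 8.81 (median 7.79) in Rapa females. In males, Rapa-2 ran from 7.79 to 8.43, below controls (8.82 to 9.49) and Rapa-1 (9.18 to 9.51) without overlap. These values are those of the brighter probe. Its other probe differed by 0.09 in females and 0.09 in males and did not pass the test in either. Slc35a2, which carries UDP-galactose, went the other way, rising by 0.32 ± 0.04 in females (adjusted p = 1.8e-08; 7.67 to 8.10 in Rapa, 7.30 to 7.79 in controls), with 21 of 21 Rapa females above the control mean, and 0.03 under median scaling. Slc29a1, the nucleoside carrier Ent1, rose by 0.43 ± 0.07 (adjusted p = 5.2e-06; 10.92 to 11.64 in Rapa, 10.41 to 11.26 in controls), but under median scaling the difference was 0.00.

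Metal carriers fell and rose in similar numbers, 4 of 27 probes higher and 5 lower in Rapa females, 1 higher and 2 lower in Rapa males. Slc30a6, a zinc carrier of the Golgi, ran from 8.17 to 8.58 in control males and 8.13 to 8.44 in Rapa-1 against 6.91 to 7.13 in Rapa-2. Control females lay as low as Rapa-2, at 6.95 to 7.36, and Rapa females at 6.63 to 7.00. Control males and control females did not overlap (-1.25 ± 0.04, adjusted p = 1.6e-24). The diet differences were -0.33 ± 0.04 in females (adjusted p = 9.8e-09) and -0.68 ± 0.16 in males (adjusted p = 0.0054), and the probe was detected on 1 of 21 Rapa females, so that the other 20 signals there were not above background.

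Slc39a4, the zinc importer lost in acrodermatitis enteropathica, was higher in control females than in control males by 0.76 ± 0.15 (adjusted p = 7.8e-05) and, after quantile normalization, in Rapa than in control females by 0.38 ± 0.15 (adjusted p = 0.031), where median scaling gave -0.05. Against the second run of control females alone the diet difference was 0.13 and did not pass. Slc31a1, the copper importer Ctr1, was higher with Rapa in females by 0.21 ± 0.07 (adjusted p = 0.0086), though at -0.21 under median scaling, and in males by 0.27 ± 0.07 (adjusted p = 0.011). The male medians were 10.59 in controls, 10.76 in Rapa-1 and 10.94 in Rapa-2. Without control females 2, 3 and 15 the female differences of Slc31a1 and Slc2a9 were 0.10 and 0.14 and did not pass the test, and with the runs as a random block those of Slc31a1, Slc2a9, Slc39a4 and Slc22a7 did not pass either.

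Of the ion carriers, Slc4a1, the anion exchanger of the red cell membrane, had the largest female diet difference in size, -1.12 ± 0.37 (fold 0.461, adjusted p = 0.0094), and was the 1 carrier probe past 2-fold (1.01% of all probes). It ran from 6.71 to 12.71 (median 7.81) in control females and from 6.61 to 7.99 (median 7.04) in Rapa females. The controls owed their spread to animals 3 and 15, at 12.71 and 11.66, and the next was 8.90. Without control females 2, 3 and 15 the difference was -0.61 and still passed, while with runs of animal numbers as a random block it did not pass. The neutrophil marker S100a9 was also high in those animals, at 13.36 and 12.99, and fell by 1.77 without them. The red cell markers Hba-a1 and Alas2 (2 of 6 listed were tested) differed by 0.10 and 0.01 between Rapa and control females and did not pass, and their summed log2 signal ran from 12.8 to 15.3 in control and from 13.4 to 15.4 in Rapa females. What share of the Slc4a1 signal came from blood cells or their precursors was not tested.

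Slc26a1, a sulfate and oxalate exchanger, rose in Rapa females by 0.56 ± 0.09 (adjusted p = 5.4e-06), from 7.49 to 8.64 (median 8.21) in controls to 8.20 to 9.25 (median 8.70), and 21 of 21 Rapa females were above the control mean. Under median scaling the difference was 0.17 and not past the test. Slc12a2, the sodium, potassium and chloride cotransporter Nkcc1, fell by 0.53 ± 0.11 (adjusted p = 0.00015), with 21 of 21 Rapa females below the control mean. Its 3 highest controls were animals 3, 2 and 1, at 10.45, 9.83 and 9.44, and its dimmer probe did not pass the test (-0.09). Against the second run of control females the difference was -0.24 and still passed, and with the detected share as a covariate its sign turned to 0.056. Slc4a2, a bicarbonate exchanger, rose in Rapa males by 0.28 ± 0.07 (adjusted p = 0.0066), where Rapa-2 spanned 9.15 to 9.33 and controls 8.54 to 8.84.

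Among carriers of other cargo, Slc19a2, a thiamine importer, fell in Rapa females by 0.62 ± 0.08 (adjusted p = 1.2e-08; 10.36 to 11.20 in Rapa, 10.75 to 11.67 in controls), with 21 of 21 Rapa females under the control mean. Slc20a2, a phosphate importer, fell in females by 0.62 ± 0.07 (adjusted p = 4.6e-09) and in males by 0.33 ± 0.11 (adjusted p = 0.043), where Rapa-2 (8.98 to 9.52) lay below controls (9.91 to 10.41). Slc66a2, a member of the PQ-loop family, fell by 0.77 ± 0.11 in females (adjusted p = 1.5e-07) and 0.36 ± 0.12 in males (adjusted p = 0.033). Slc17a4, a urate and phosphate carrier, fell in Rapa females (-0.35 ± 0.12, adjusted p = 0.011), but did not pass against the second run of control females (-0.27) or with the runs as a random block (-0.36). Slc44a1, a choline carrier, rose by its brighter probe in Rapa males alone by the test (0.28 ± 0.08, adjusted p = 0.019). In females that probe differed by 0.06, or by -0.29 and past the test under median scaling. Its interaction of diet and sex did not pass (-0.21, adjusted p = 0.21). The dimmer Slc44a1 probe differed by 0.05 in males and did not pass.

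**Figure D4:**
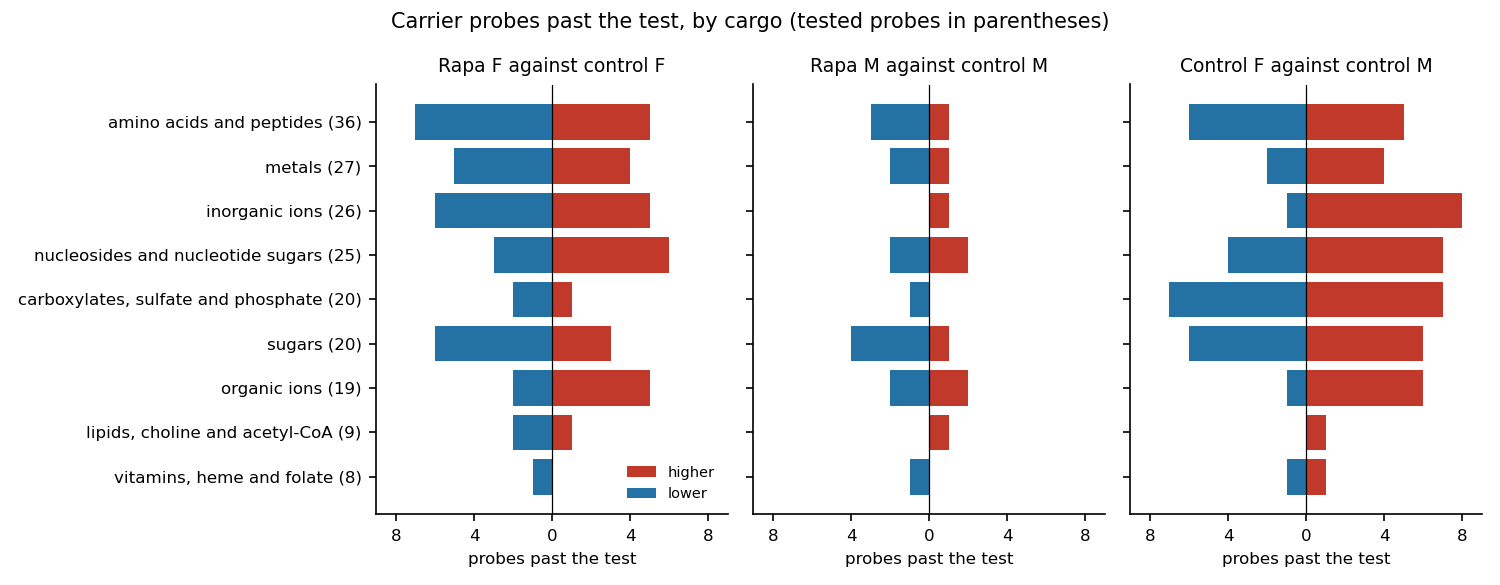
Numbers of carrier probes past the test in each comparison, grouped by cargo, higher to the right of 0 and lower to the left, with the tested probes of each family in parentheses. Female diet calls run both ways in every family of more than 8 probes; under median scaling the 30 higher calls were absent.

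Promoter windows of some named genes are printed here, from both ends of the female diet difference on the brightest probe. The directions are not settled. Other probes of Slc2a2 rose and that of Slc35a1 did not pass, and under median scaling neither Slc22a18 nor Slc38a7 passed. Among the named genes with a single window read, they are the 2 lowest (Slc35a1 and Slc2a2) and the 2 highest (Slc22a18 and Slc38a7) in Rapa females. Some named genes had no window read, since windows of a left-out chromosome were not read or no entry matched. These were not ranked, among them Slc4a1 (-1.12), Slc66a2 (-0.77), Slc38a3 (0.52) and Slc39a4 (0.38). Each window runs from 250 bases before to 50 bases after the RefSeq start (build GRCm38.p6), 5′ to 3′ along the gene, and 116 of 148 carrier genes had an entry. Capitals mark the letters of 5 motifs searched on both strands.
Slc35a1, chr4:34687389-34687688, minus strand: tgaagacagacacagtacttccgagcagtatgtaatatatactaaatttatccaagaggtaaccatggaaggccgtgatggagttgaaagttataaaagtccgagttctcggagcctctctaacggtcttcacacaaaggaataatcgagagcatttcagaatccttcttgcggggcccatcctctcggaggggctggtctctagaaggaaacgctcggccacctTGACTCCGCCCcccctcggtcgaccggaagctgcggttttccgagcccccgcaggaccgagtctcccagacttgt
Slc2a2, chr3:28697653-28697952, plus strand: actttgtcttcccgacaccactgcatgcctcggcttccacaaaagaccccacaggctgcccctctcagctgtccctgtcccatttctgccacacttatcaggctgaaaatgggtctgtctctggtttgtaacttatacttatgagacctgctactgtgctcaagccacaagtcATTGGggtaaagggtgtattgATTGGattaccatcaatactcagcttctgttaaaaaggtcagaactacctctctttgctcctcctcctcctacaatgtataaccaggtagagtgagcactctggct
Slc22a18, chr7:143473539-143473838, plus strand: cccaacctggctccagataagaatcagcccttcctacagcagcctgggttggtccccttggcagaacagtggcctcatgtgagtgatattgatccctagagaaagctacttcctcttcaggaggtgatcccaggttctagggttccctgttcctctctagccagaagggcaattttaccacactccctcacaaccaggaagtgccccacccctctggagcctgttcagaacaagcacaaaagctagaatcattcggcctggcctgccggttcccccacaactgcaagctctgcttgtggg
Slc38a7, chr8:95853442-95853741, minus strand: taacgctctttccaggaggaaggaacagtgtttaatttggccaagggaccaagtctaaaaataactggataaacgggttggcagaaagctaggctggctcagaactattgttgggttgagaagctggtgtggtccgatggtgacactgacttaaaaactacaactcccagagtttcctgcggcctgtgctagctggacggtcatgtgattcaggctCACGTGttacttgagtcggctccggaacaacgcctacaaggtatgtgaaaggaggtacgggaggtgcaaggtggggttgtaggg
The Slc35a1 window held an antioxidant response element core (TGACNNNGC) that overlaps a GC box (GGGCGG, here on the other strand). The Slc2a2 window held the CCAAT letters at 2 places, both on the other strand, the Slc38a7 window an E-box (CACGTG), and the Slc22a18 window no motif of the 5. Over all 32851 windows the shares were 12.4% for TGACNNNGC, 35.7% for GGGCGG, 37.4% for CCAAT, 7.15% for CACGTG and 8.3% for TTCNNNGAA, the STAT5 letters. Over the 166 carrier windows they were 15.7%, 59%, 33.1%, 13.9% and 7.23%, and over the windows of tested genes 13.8%, 59.4%, 37.8%, 9.84% and 7.02%. A match is a description of the letters and says nothing of binding.

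The probes of 1 gene often parted. Of 148 genes, 31 had more than 1 tested probe, and all probes gave the same call in 15 of them for diet in females, 22 for diet in males and 15 for sex. Opposite calls occurred in 2 genes for diet in females and 2 for sex, and in 0 for diet in males. Of the 2 for diet in females, that of Slc38a2 rests on its dimmest probe, detected on few female arrays. The gap between probes was wide in Rapa-2 and narrow in Rapa-1: 7 of 31 genes had probes more than 0.5 apart in the log2 difference of Rapa-2 from control males (22.6%, against 23.6% of 2190 genes with several probes), and 0 of 31 in that of Rapa-1 (0%, against 0.0913%).

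The 7 genes were Slc2a2, Slc38a2, Slc35a1, Slc35e2, Slc30a7, Slc7a2 and Slc16a6. For Slc35e2 the probe that was brighter in control males had means of 8.64 in control males, 8.80 in Rapa-1, 7.09 in Rapa-2, 7.34 in control females and 6.94 in Rapa females, while the other stayed between 7.66 and 7.89. For Slc30a7, a zinc carrier of the Golgi, 1 probe had means of 8.02, 8.08, 7.11, 7.22 and 6.90 in the same order, and the other lay between 8.18 and 8.41. In Slc35e2 and Slc30a7 1 probe was low in Rapa-2 males and in both female groups, and the other was not. Whether these probes read different transcript ends or differ in hybridisation was not tested.

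**Figure D5:**
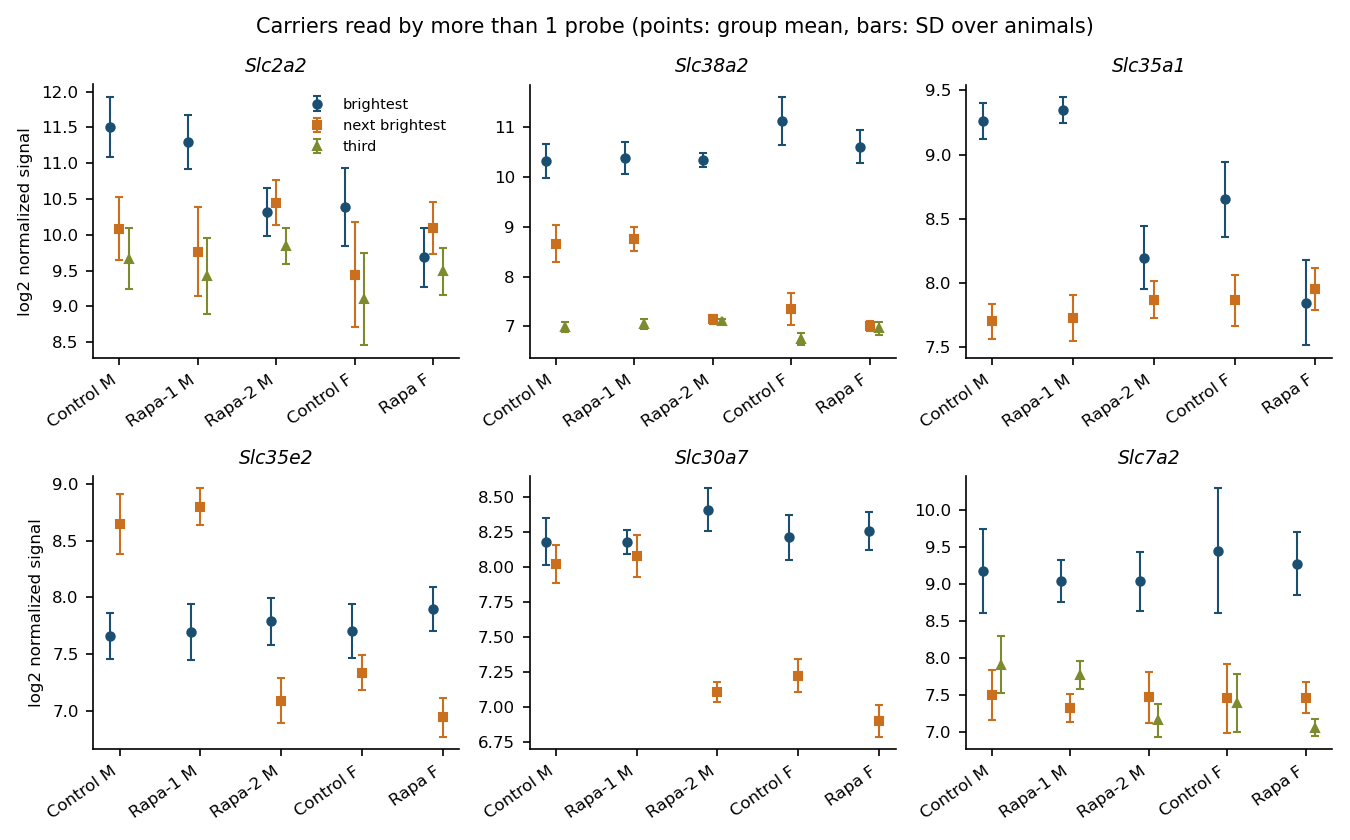
Group means (points) and SD over animals (bars) of the log2 normalized signal for each probe of 6 carriers, ordered by mean brightness over all arrays. In Rapa-2 males 1 probe of Slc38a2, Slc35a1, Slc35e2 and Slc30a7 lies more than 0.9 below its control male mean while another probe of the same gene does not.

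The larger male diet differences were those of Rapa-2, while Slc2a9, Slc22a7, Slc31a1 and Slc44a1 had, on their only or brightest probes, higher medians in both subgroups than in control males. Of the 192 carrier probes, 17 separated Rapa-2 from control males without overlap, 4 higher and 13 lower (8.85%, against 11.6% of all probes, or 2.18% higher and 9.42% lower), and 0 separated Rapa-1 from controls (0% of all probes). Rapa-1 differences were small for the genes that fell most in Rapa-2: for Slc38a4 0.20 against -1.76, for Slc37a4 0.06 against -1.48, for Slc30a6 -0.07 against -1.39. Slc5a6 was an exception, at -0.32 in Rapa-1 and -0.90 in Rapa-2. The subgroups were drawn from these arrays, so counts past the test with 1 subgroup alone, given at the end, do not test diet. With the unnormalized array median as a covariate 0 carriers passed the male diet test (21 at an unadjusted p under 0.05), and 3 and 0 passed against the first and second run of control male animal numbers alone. In males, array brightness and subgroup cannot be told apart.

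The diet difference itself differed between the sexes for 20 carrier probes by the interaction test over all 69 arrays, which set an adjusted p under 0.05 and no minimum fold (10.4%, against 20.4% of all probes), 12 with a higher and 8 with a lower value in females (11.2% and 9.27% of all probes). The lower ones included Slc38a2 (-0.54 ± 0.18, adjusted p = 0.023), Slc19a2 (-0.52 ± 0.13, adjusted p = 0.0028), Slc12a2 (-0.52 ± 0.14, adjusted p = 0.0062) and Slc6a6 (-0.50 ± 0.13, adjusted p = 0.0046). On these brightest probes each fell in Rapa females and had a male difference between -0.10 and 0.09. The next brightest Slc38a2 probe fell more in males (-0.65) than in females (-0.34), and its interaction did not pass (0.31 ± 0.22). The higher ones included Slc22a18 (0.55 ± 0.14, adjusted p = 0.0040), Slc26a1 (0.52 ± 0.13, adjusted p = 0.0040), Slc6a13 (0.29 ± 0.09, adjusted p = 0.020, but -0.041 under median scaling) and Slc35a2 (0.24 ± 0.05, adjusted p = 0.0011). With runs of animal numbers as a random block none of the 192 passed (6 at an unadjusted p under 0.05), and none of the 12442 probes did.

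Sex alone set apart 7 carrier probes without overlap between control females and control males, 1 higher and 6 lower in females (3.65%, against 5.51% of all probes, or 0.458% higher and 5.06% lower). The higher was Slc4a2 (9.03 to 9.38 in females, 8.54 to 8.84 in males). The lower were Slc38a4, Slc30a6, Slc23a2, Slc7a6os and 1 probe each of Slc35e2 and Slc30a7. Slc23a2, a vitamin C importer, was detected on 19 of 19 control males and on no female array, and was at least 1.31-fold higher in control males, with the female mean taken as no lower than the dimmest detected signal of each array (measured means 7.29 and 6.69).

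By size the lowest in control females was Slc17a8, a vesicular glutamate carrier, at 6.66 to 7.76 (median 7.12) against 6.99 to 10.15 (median 8.83) in control males, a difference of -1.54 ± 0.24 (fold 0.343, adjusted p = 1.1e-06). The males were widely spread and overlapped the females at the bottom. Diet did not pass for Slc17a8 in either sex (0.18 ± 0.12 and -0.33 ± 0.29). The highest in control females was Slc4a1 (1.30 ± 0.39, adjusted p = 0.0049), with the 2 high animals described above. Slc38a2, Slc39a4 and Slc6a6 followed on their brightest probes (0.80, 0.76 and 0.71), then Slc16a6, a monocarboxylate family member (0.69 ± 0.09, adjusted p = 3.1e-08), and Slc17a4 (0.60 ± 0.14, adjusted p = 0.00033). Slc16a6 was detected on 4 of 19 control males and 15 of 16 control females, and a further probe of it was lower in females (-0.24). The scaffold Slc9a3r1, also called Nherf1, stood above males in control females (0.30 ± 0.08, adjusted p = 0.0024) and did not pass for diet (-0.04 and 0.10), except in females under median scaling (-0.45).

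Other parts of hepatic transport were counted by gene on the same arrays. Of all genes counted so, 37.9% passed in females and 9.91% in males. Of 26 ATP-driven Abc transporters, 7 rose and 4 fell in Rapa females and 2 rose and 1 fell in Rapa males; under median scaling the female counts were 0 and 10. The bile salt export pump Abcb11 was among those that fell (-0.50, adjusted p = 0.0017). Of 18 regulators known to act on carrier genes, 5 rose and 6 fell in females, or 0 and 9 under median scaling. In males 1 rose and 1 fell. The list holds the carrier Slc38a9, a member already counted above, which did not pass. Nfe2l2 fell in both sexes (-0.37 and -0.28) and Hnf4a in females (-0.40). Of 9 partners and scaffolds, 1 rose and 2 fell in females, or 0 and 5 under median scaling, and 0 passed in males. The list holds the members Slc9a3r1 and Slc9a3r2, already counted above. The 1 that rose was Slc9a3r2 (0.35), and Slc9a3r1 was among the 5 lower under median scaling. Atp1b3, a sodium pump subunit, was at -0.70 in females (adjusted p = 0.0047).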

How the data were processed

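Total liver RNA of 69 mice was hybridised to Illumina MouseRef-8 arrays, 1 animal each. The authors deposited bead signal intensity and a detection score per probe and array without normalization, and a table of log2 quantile-normalized values, which served as an alternative. The deposited detection score is a fraction from 0 to 1, taken here as detected above 0.95. Here signals were log2 transformed and quantile normalized (limma 3.58.1 in R 4.3.3), probes detected on at least 13 arrays were kept, and groups were compared with lmFit and eBayes, two-sided, with Benjamini-Hochberg adjustment over 12442 probes; the fit was tested on simulated data. Symbols are those of the platform; 23978 of 25697 probes had 1 symbol.

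Members and gene lists were chosen with earlier results of these data known. Genes named are the 6 highest and 6 lowest called in each comparison, the 6 smallest interaction p and a set of liver carriers; the brightest probe stands for a gene. Others named (Slc2a1, Slc2a3, Slc7a5, Slc50a1, Slc35e2, Slc30a7, Slc23a2 and Slc7a6os) were chosen after their values were seen. Every animal is a separate sample. The number of arrays limits precision. The division of Rapa males came from the study.

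Alternatives were another background correction (neqc), median scaling, the authors' table, other filters, tests and fold minimums, array brightness and detection as covariates, runs of animal numbers, blocks and left-out arrays. No deposited column was left without a sample.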

Additional observations from a re-analysis of the deposited data

Results flagged for a closer look

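Of 66 groups of Rapa-1 and Rapa-2 values of the named carriers, 9 held an animal far from the rest of its group, where chance alone is set to give about 1 in 20. Rapa-1 male 3 was low for Slc2a2, at 10.5 with the next at 11.2, and high for Slc31a1, at 11.2. Rapa-1 male 2 was high for Slc12a2 (8.92) and Rapa-1 male 1 for Slc19a2 (11.6). Rapa-2 male 4 was low for 3 carriers, Slc2a2 (9.67), Slc37a4 (6.60) and Slco2b1 (11.2). Rapa-2 male 5 was high for Slc6a13 (12.5) and Rapa-2 male 1 for Slco1a4 (8.25, where the others were at most 7.54). The same animal thus recurred for 2 and for 3 genes, and its part in the group means was not tested.

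A difference between the sexes in the diet response was found for 8 named carriers by the interaction test. The log2 differences of female minus male response were -0.54 for Slc38a2, -0.52 for Slc19a2, -0.52 for Slc12a2, -0.50 for Slc6a6, 0.24 for Slc35a2, 0.29 for Slc6a13 (-0.041 under median scaling), 0.52 for Slc26a1 and 0.55 for Slc22a18. All are values of the brightest probe, and the next brightest Slc38a2 probe fell in males by 0.65. The median in Rapa-2 and in control males was, for Slc19a2, 10.68 against 10.95, for Slc6a13 12.41 against 12.18, and for Slc35a2 7.73 against 7.51.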

How the results depend on the processing

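The number of carrier probes past the test moved as follows. For diet in females (66) it was 10 with a fold minimum of 1.5 and 22 with the detected share of each array as a covariate. For diet in males (25) it was 15 with no detection filter, 7 by Welch's unequal-variance test over the same arrays, 7 with a fold minimum of 1.5, 0 with the array median as a covariate (21 at an unadjusted p under 0.05), 11 with the detected share, 0 with Rapa-1 alone (18) and 52 with Rapa-2 alone. Against the first and second run of control male numbers it was 3 and 0 (41 at an unadjusted p under 0.05). For sex (74) it was 19 with a fold minimum of 1.5, and 61 with the array median as a covariate, 45 of them among the 74. For the interaction (20) it was 62 under median scaling, 0 with number runs as a random block and 48 with the array median. It was 4 with the detected share and 52 with Rapa-1 alone. Counts with Rapa-1 or Rapa-2 alone were largely set by the split, which was drawn from these same arrays. They do not test diet.

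Replicate numbers are shared by name only: 5 of 16 female pairs, 2 of 7 and 3 of 6 male pairs and 10 of 16 control pairs had deviations correlated above 0.1. With the replicate number as a block the counts were 65 for diet in females, 0 in males (30 at an unadjusted p under 0.05), 79 for sex and 4 for the interaction.

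Signs turned for called genes as follows. Under median scaling, diet in females became -0.15 for Slc2a9, -0.21 for Slc31a1, -0.022 for Slc38a7 and -0.048 for Slc39a4, and the Slc6a13 interaction -0.041. With the detected share as a covariate, diet in females became 0.056 for Slc12a2, -0.087 for Slc2a9, -0.062 for Slc39a4, 0.077 for Slc4a1 and 0.0056 for Slc6a6. With the array median as a covariate, diet in males became 0.056 for Slc20a2, 0.067 for Slc35a1, 0.14 for Slc38a4, 0.062 for Slc66a2 and 0.024 for Slco2b1. With Rapa-1 alone it became 0.082 for Slc20a2, 0.088 for Slc35a1, 0.056 for Slc37a4, 0.20 for Slc38a4, 0.042 for Slc66a2 and 0.031 for Slco2b1. The cause was not tested. No named gene turned sign for sex. Of 2046 further values of the 33 named genes, 1757 kept their call.

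No total count of carriers moved beyond 1.5 times under neqc, the authors' table, a stricter detection limit, 1 model over all arrays, the methods' t-test, no fold minimum or without control females 2, 3 and 15 (chosen after seeing the data). Counts in 1 direction did: under neqc those higher went from 30 to 51 for diet in females, from 9 to 14 for diet in males and from 45 to 69 for sex, and those lower from 8 to 13 for the interaction; with no fold minimum those higher were 55, 14 and 73; and under the stricter detection limit 12 were lower for the interaction. The methods' t-test gave 65, 21 and 74 after Benjamini-Hochberg adjustment and 106, 58 and 118 at an unadjusted p under 0.05, for diet in females, diet in males and sex. Slide as a block was not run, since no slide was given. Dim probes near the detection limit carry little range.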
